A study of Homo sapiens with 4 samples.

Results

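The ADAM and ADAMTS genes encode a family of zinc-dependent metalloproteases and their non-catalytic relatives. They were read here on 4 Affymetrix arrays of human lung adenocarcinoma cells in which the histone methyltransferase G9a, encoded by EHMT2, had been lowered or raised. Members were all probe sets annotated to a single gene whose symbol starts with ADAM. The rule gave 119 probe sets of 51 genes, of 19741 genes in all, and used no measured value. Of the 51 genes, 46 belong to the family itself, pseudogenes included, and 5 are noncoding neighbours named after a member (ADAM7-AS2, ADAMTS9-AS1, ADAMTS9-AS2, ADAMTS16-DT and ADAMTSL4-AS2). A further probe set, shared by ADAM29 and a second locus, was left out by the rule.

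The 4 groups, each of 1 array, were CL1-5 cells with a control shRNA, CL1-5 cells with a G9a shRNA, CL1-0 cells with a control vector, and CL1-0 cells expressing HA-tagged G9a. CL1-0 and its more invasive subline CL1-5 are established lung adenocarcinoma lines. All 4 populations were stably transduced and selected with puromycin. The labels name a single G9a shRNA, so no second hairpin checks the knockdown here. The knockdown and HA-G9a were made in different lines, with different kinds of control construct, so an shRNA control cannot be told apart from the line when the control populations are compared.

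ADAMs are membrane proteins with a metalloprotease and a disintegrin domain. The catalytic ones shed ectodomains of growth factors, cytokine receptors, Notch and adhesion molecules, and several other members lack the catalytic residues or are restricted to testis and epididymis. ADAMTS proteases are secreted, carry thrombospondin type 1 repeats and cut matrix substrates such as aggrecan, versican, procollagens and von Willebrand factor. ADAMTS-like (ADAMTSL) proteins keep the repeats without the protease domain and bind fibrillin microfibrils.

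The promoter sequences of 6 members are shown as examples. ADAM17 was bright on all arrays, ADAM19, ADAM23 and ADAMTSL3 read lower after the knockdown, and ADAMTS12 separated the lines. ADAMTS6 read higher after the knockdown, at 14.4 against 4.77, and was above background there on the knockdown array alone. With lower signals raised to the 50th percentile, its log2 ratio was -0.16. Each sequence is the stretch of 250 bases just before the gene's start, 5′ to 3′ on the gene's strand. They are from RefSeq on GRCh38.p14, with CG dinucleotides in capitals. The windows are chr2:9555831-9556080 (minus strand) for ADAM17, chr5:157575776-157576025 (minus) for ADAM19, chr2:206443282-206443531 (plus) for ADAM23, chr15:83653873-83654122 (plus) for ADAMTSL3, chr5:65481921-65482170 (minus) for ADAMTS6 and chr5:33891991-33892240 (minus) for ADAMTS12.
ADAM17: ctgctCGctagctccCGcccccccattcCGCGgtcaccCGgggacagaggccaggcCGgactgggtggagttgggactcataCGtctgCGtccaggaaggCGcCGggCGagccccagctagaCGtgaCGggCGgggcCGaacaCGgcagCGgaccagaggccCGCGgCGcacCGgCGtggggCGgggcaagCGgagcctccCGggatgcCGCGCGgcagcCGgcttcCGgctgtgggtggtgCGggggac
ADAM19: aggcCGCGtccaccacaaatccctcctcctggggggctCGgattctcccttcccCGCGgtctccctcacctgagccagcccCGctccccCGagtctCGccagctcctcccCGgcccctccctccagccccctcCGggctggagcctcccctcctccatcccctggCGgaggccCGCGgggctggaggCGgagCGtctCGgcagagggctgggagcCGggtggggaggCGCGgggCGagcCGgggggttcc
ADAM23: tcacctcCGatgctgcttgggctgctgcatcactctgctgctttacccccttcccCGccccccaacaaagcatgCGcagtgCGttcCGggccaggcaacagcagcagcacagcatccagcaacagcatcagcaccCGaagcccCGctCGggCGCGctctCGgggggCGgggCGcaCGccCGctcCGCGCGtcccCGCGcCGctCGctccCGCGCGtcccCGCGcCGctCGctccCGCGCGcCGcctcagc
ADAMTSL3: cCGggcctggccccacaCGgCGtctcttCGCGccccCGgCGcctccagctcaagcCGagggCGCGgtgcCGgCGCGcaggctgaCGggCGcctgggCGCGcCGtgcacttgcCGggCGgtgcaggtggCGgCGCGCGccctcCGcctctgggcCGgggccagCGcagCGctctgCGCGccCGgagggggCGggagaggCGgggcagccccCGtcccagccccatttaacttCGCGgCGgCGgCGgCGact
ADAMTS6: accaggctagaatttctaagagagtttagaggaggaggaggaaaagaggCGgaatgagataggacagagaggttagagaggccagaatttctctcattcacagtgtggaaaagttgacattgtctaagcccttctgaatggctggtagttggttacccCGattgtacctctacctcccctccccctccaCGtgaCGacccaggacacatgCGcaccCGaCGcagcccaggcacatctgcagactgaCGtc
ADAMTS12: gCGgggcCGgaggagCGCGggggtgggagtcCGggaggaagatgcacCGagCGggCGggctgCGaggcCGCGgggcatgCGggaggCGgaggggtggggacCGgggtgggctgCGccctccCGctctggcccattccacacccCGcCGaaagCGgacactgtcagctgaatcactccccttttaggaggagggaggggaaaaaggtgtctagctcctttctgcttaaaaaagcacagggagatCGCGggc

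The windows of the 3 genes that read lower after the knockdown held 21 CG pairs (ADAM19), 33 (ADAM23) and 40 (ADAMTSL3), against 8 in ADAMTS6, 21 in ADAMTS12 and 31 in ADAM17. The median over the 35116 windows of the promoter table was 11, and ADAMTSL3 had more than 97.8% of them. Windows were used for 29 of the 51 members. Members on chromosome 8, ADAM9 and ADAM28 among them, were left out of this step. A GC box (GGGCGG, either strand) was present in 3 copies in ADAM17, in 2 each in ADAM23 and ADAMTSL3, in 1 in ADAMTS12 and in none of ADAM19 and ADAMTS6. Of the table's windows, 42.6% hold it. The AP-1 motif TGANTCA, either strand, had 1 match, in ADAMTS12, and is in 6.57% of all windows. TATAAA, either strand, had no match in these 6 and is in 10.7% of all. No chromatin or methylation was measured, so these counts describe the sequence alone.

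The targeted gene followed the labels. EHMT2 read 376 with the control shRNA against 28.1 with the G9a shRNA, and 420 with the vector against 862 with HA-G9a. The arrays had median signals of 11.3 to 14.9 over all probe sets, and the knockdown array was the brightest: its median gene stood 1.34-fold above the CL1-5 control. Ratios are therefore given on the log2 scale relative to the median gene of their comparison, with lower signals first raised to 3.35, the 25th percentile of all values (the floor), and are called relative. Each comparison within a line has 1 array a side, so it has no test and no replicate check, and 2-fold is a fixed threshold of size. Of 9 type II alveolar markers, the cell type named in the labels, only ETV5 was bright on any array, and SFTPD and SLC34A2 were at background on all 4. In bulk RNA, fewer cells of a type and less RNA per cell cannot be told apart.

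Most of the family was dim in these cells. A gene was called expressed if its probe set reached 84.2, the 75th percentile of all values, on at least 1 array, and background if it stayed below 12.5, the 50th percentile, on all 4. Of the 51 members, 7 were expressed, a share of 13.7% against 45% of all genes. A further 20 were intermediate (39.2% against 25.7%), and 24 were background (47.1% against 29.3%). Probe sets differ in how well they bind, so a level places a gene against the array and not against another gene. The 7 expressed members were ADAM9, ADAM10, ADAM15, ADAM17, ADAM19, ADAM23 and ADAMTS16. The call just missed ADAMTS1, at 82.7 with HA-G9a, and ADAMTSL4, at 80.1 with the vector. It just took in ADAM19, at 87.4 in the CL1-5 control.

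**Figure D1:**
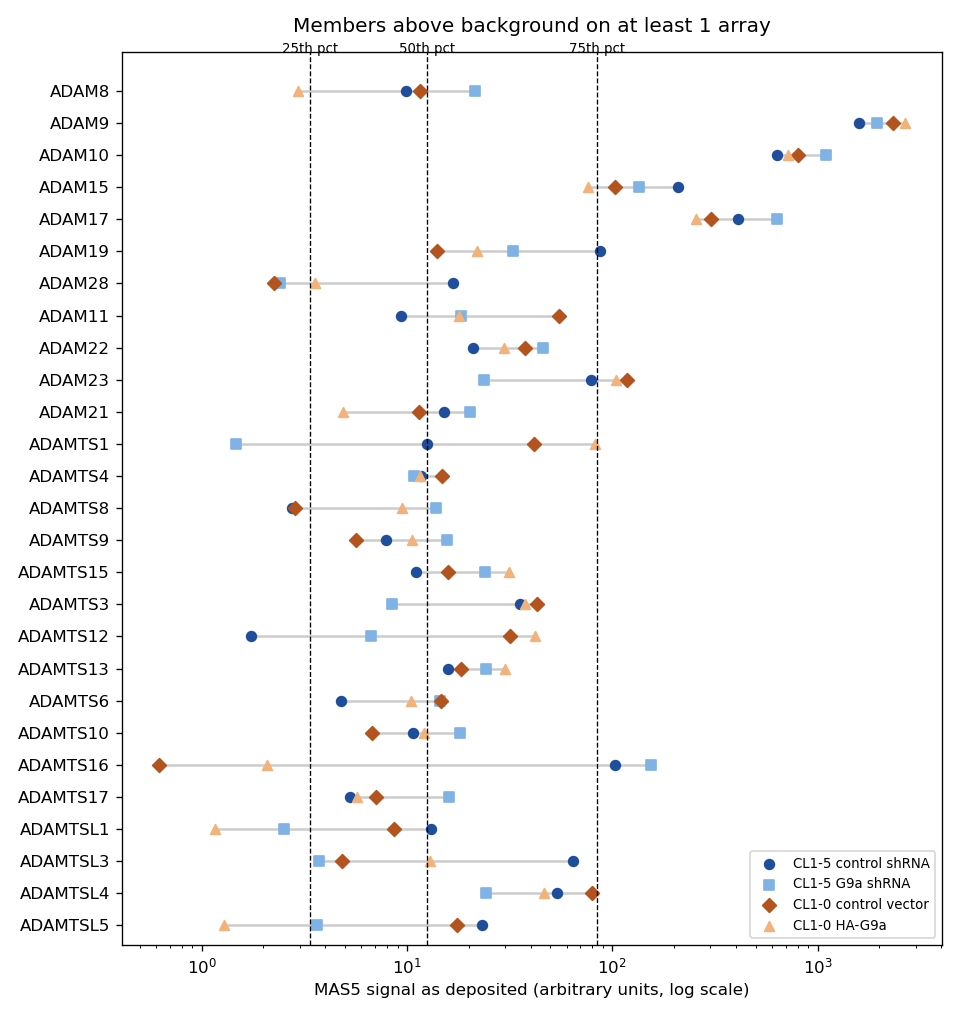
MAS5 signal (x axis, log scale, arbitrary units) of the 27 members that were not background, with 1 symbol per array and dashed lines at the 25th, 50th and 75th percentiles of all values. ADAM9, ADAM10 and ADAM17 lie above 84.2 on all 4 arrays, while ADAMTS16 lies above it in both CL1-5 populations and below the 25th percentile in both CL1-0 populations.

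The ubiquitous sheddases were bright in every population, and none passed 2-fold in any comparison. ADAM10, the main alpha-secretase and Notch sheddase, read 635 in the CL1-5 control, 1100 after the knockdown, 800 with the vector and 714 with HA-G9a. ADAM17, the TNF-alpha converting enzyme that also frees EGF receptor ligands, read 411, 634, 304 and 256 in the same order. ADAM9, a widely expressed sheddase, read 1589, 1937, 2339 and 2657. The relative log2 ratios after the knockdown were 0.37 for ADAM10, 0.21 for ADAM17 and -0.13 for ADAM9, and with HA-G9a -0.08, -0.17 and 0.27. The dimmer probe sets of these genes gave similar ratios, so that the knockdown ratio lay between -0.27 and 0.37 over all measured probe sets of the 3 genes. Only 3 of 51 members (5.88%) were bright on all 4 arrays, against 33% of all genes, and these were the 3.

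ADAM15 and ADAM19, membrane ADAMs with an active protease domain, were brighter in the CL1-5 control than elsewhere. ADAM15, whose disintegrin domain binds integrins, read 208 in the CL1-5 control, 134 after the knockdown, 104 with the vector and 75.8 with HA-G9a. Its relative log2 ratio after the knockdown was -1.05, just past 2-fold, and its other measured probe set gave -0.80. Without centring on the median gene, with no filter, or with the median of its probe sets, it did not reach 2-fold. ADAM19, also called meltrin beta, read 87.4 in the CL1-5 control, 32.8 after the knockdown, 14.1 with the vector and 22.0 with HA-G9a. Its relative log2 ratio was -1.83 after the knockdown, a 3.57-fold lower signal, and 0.73 with HA-G9a. Its second probe set stayed between 1.54 and 6.88, at background.

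The other somatic catalytic ADAMs were dim. ADAM28, known from lymphocytes and lung tumours, read 16.8 in the CL1-5 control, 2.42 after the knockdown, 2.26 with the vector and 3.56 with HA-G9a, so its relative ratio of -2.75 after the knockdown depends on the floor. Its 3 other probe sets were at background on all arrays. ADAM8, a sheddase of leukocytes, read 9.87, 21.4, 11.6 and 2.95 over the CL1-5 control, knockdown, vector and HA-G9a. ADAM12 (meltrin alpha), ADAM33 and the soluble ADAMDEC1 were background. Among the 4 other probe sets of ADAM12, one reached 13.9 with HA-G9a and lay between 2.65 and 6.78 on the other arrays, so the gene's call depends on the probe set.

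Of the non-catalytic ADAMs of neurons, ADAM23 read lower after the knockdown. ADAM23, a receptor of the secreted protein LGI1, read 78.4 in the CL1-5 control, 23.8 after the knockdown, 118 with the vector and 104 with HA-G9a. The knockdown array was the low one, and the CL1-5 control lay below both CL1-0 arrays. The relative log2 ratio was -2.14 after the knockdown, a 4.40-fold lower signal, and -0.10 with HA-G9a. One other measured probe set read 19.6, 6.28, 53.5 and 47.5 in that order, a knockdown ratio of -2.06, and the second 14, 9.72, 30.0 and 29.8, a ratio of -0.94. In both, the CL1-5 control was over 2-fold below the vector, with relative ratios of -1.43 and -1.09. With the median of its probe sets the knockdown ratio was -1.22.

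ADAM22, the related LGI1 receptor, went the other way after the knockdown but stayed within 2-fold. It read 20.9 in the CL1-5 control, 45.7 after the knockdown, 37.4 with the vector and 29.8 with HA-G9a, giving a relative ratio of 0.71 after the knockdown. Its 4 other measured probe sets had ratios from 0.17 to 2.79, all above 0. ADAM11, expressed mainly in brain, was highest with the CL1-0 vector. It read 9.33, 18.3, 54.8 and 17.8 over the CL1-5 control, knockdown, vector and HA-G9a, and its relative ratio with HA-G9a was -1.54. Its second probe set was at background on all arrays.

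The ADAMs of the reproductive tract were at background almost throughout. ADAM2, ADAM3A, ADAM3B, ADAM5, ADAM6, ADAM18, ADAM20, ADAM30 and ADAM32 did not reach 12.5 on any array. ADAM21 alone of the 10 was intermediate, at 15.2, 20.4, 11.5 and 4.86 over the CL1-5 control, knockdown, vector and HA-G9a. Of 7 testis germ cell markers 6 were background on all arrays as well, and PRM1 reached 13.2 in the CL1-5 control. The 5 noncoding neighbours were also background on all arrays, with signals from 0.58 to 9.82.

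Of the proteoglycan-cleaving ADAMTS genes, the probe set used for ADAMTS1 was lower with less G9a and higher with more. ADAMTS1, which cleaves versican and aggrecan, read 12.6 in the CL1-5 control, 1.47 after the knockdown, 41.4 with the vector and 82.7 with HA-G9a. The CL1-0 arrays lay above the CL1-5 arrays. Its relative log2 ratio was -2.33 after the knockdown, where the dimmer array was below the floor, and 1.08 with HA-G9a. The second probe set did not show the knockdown difference, since it was at background in CL1-5, at 4.07 and 4.75. It read 18.1 and 25.9 in CL1-0, a relative ratio of 0.60. Without centring, with arrays scaled to the same median, with no filter, or with the median of its probe sets, the HA-G9a ratio fell short of 2-fold.

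The other members of this group were near background. ADAMTS15 read 11.1, 24.1, 15.8 and 31.3 over the CL1-5 control, knockdown, vector and HA-G9a, with relative ratios of 0.70 and 1.07, and the latter fell short of 2-fold without centring, with the arrays scaled to the same median and with no filter. ADAMTS8 read 2.77, 13.8, 2.86 and 9.44 in that order, and its relative ratio of 1.62 after the knockdown rests on the floor. ADAMTS4 stayed between 10.8 and 14.8 and ADAMTS9 between 5.64 and 15.6. The aggrecanase gene ADAMTS5 and ADAMTS20 were background.

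Of the procollagen N-propeptidases, only ADAMTS3 was measured above background. ADAMTS3, which trims procollagen II and activates VEGF-C, read 35.5 in the CL1-5 control, 8.5 after the knockdown, 42.9 with the vector and 37.5 with HA-G9a. The knockdown array was low, below the 50th percentile, and the other 3 lay between 35.5 and 42.9. The relative log2 ratio was -2.48 after the knockdown and -0.11 with HA-G9a, from its only probe set. With the floor at the 50th percentile the knockdown ratio was -1.88. ADAMTS2 and ADAMTS14 were background on all arrays. ADAMTS13, the protease of von Willebrand factor, read 15.9, 24.3, 18.3 and 30.1 and did not pass 2-fold.

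ADAMTS16 and ADAMTS12 separated the lines. ADAMTS16, a secreted protease with few known substrates, read 104 in CL1-5 with the control shRNA and 154 with the G9a shRNA, but 0.62 with the vector and 2.07 where HA-G9a was expressed. These values come from the only probe set of ADAMTS16, so no second one checks them. The gene lies at chr5:5140330-5320304 on GRCh38.p14. Its divergent neighbour ADAMTS16-DT, at chr5:5132085-5140054, was background on all arrays, between 3.51 and 5.81. ADAMTS12, which degrades cartilage oligomeric matrix protein, showed the reverse pattern, with 1.74 and 6.65 in CL1-5 and 31.8 and 42.2 in CL1-0. Its second probe set did not show it: it read 13.9 and 14 in CL1-5, 12 with the vector and 9.49 with HA-G9a.

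The remaining ADAMTS genes were dim. ADAMTS17, which acts on fibrillin microfibrils, read 5.30, 16.0, 7.03 and 5.72 over the CL1-5 control, knockdown, vector and HA-G9a, a relative ratio of 1.17 for the knockdown. ADAMTS6 read 4.77, 14.4, 14.6 and 10.4 in that order, with a relative ratio of 1.18 for the knockdown. With the floor at the 50th percentile the ratios of ADAMTS6, ADAMTS8 and ADAMTS17 were slightly below 0. The other probe sets of ADAMTS6, ADAMTS8 and ADAMTS17 were at background. ADAMTS10 stayed between 6.79 and 18.1, and ADAMTS18 and ADAMTS19 were background.

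Of the 5 ADAMTS-like genes, 4 were measured in CL1-5 (the brighter array at 12.5 or more), and all 4 read at least 2-fold lower after the knockdown, against 7.76% of all genes so measured. Each had its brighter signal in the control. ADAMTSL1, ADAMTSL3 and ADAMTSL5 were counted through the control array alone, so a lower reading was largely built into their count. Only ADAMTSL4 reached 12.5 on both arrays. ADAMTSL3 read 64.6 in the CL1-5 control, 3.74 after the knockdown, 4.82 with the vector and 13.0 with HA-G9a. Only the CL1-5 control was clearly above background. The relative log2 ratio was -4.53 after the knockdown and 1.51 with HA-G9a. Its size rests on signals near the floor: the knockdown ratio was -2.74 with the floor at the 50th percentile and -2.47 with the median of its probe sets. Its second, dim probe set read 11.9 in both CL1-5 populations and did not show the loss.

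ADAMTSL4, a fibrillin-binding protein of the lens zonule, read 53.8 in the CL1-5 control, 24.2 after the knockdown, 80.1 with the vector and 46.3 with HA-G9a. It was the lower of the pair in both lines when G9a was changed, with relative ratios of -1.57 and -0.71. Its second probe set, at background in CL1-5, read 16.1 and 14.6 in the CL1-0 pair (ratio -0.06) and did not show the HA-G9a difference. ADAMTSL5 read 23.1, 3.66, 17.5 and 1.29 in the same order, relative ratios of -3.08 and -2.30 from its only probe set, the latter against an array below the floor. With the floor at the 50th percentile they were -1.26 and -0.41. ADAMTSL1 (punctin) read 13.1, 2.52, 8.69 and 1.16, and its ratio of -2.39 after the knockdown rests on the floor (-0.44 with the floor at the 50th percentile). ADAMTSL2 was background.

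Among members past 2-fold after the knockdown, lower signals outnumbered higher ones, while of all counted members 14 lay above 0 and 11 below. A member was counted in a comparison when its brighter array reached 12.5. Of 25 counted members, 10 were at least 2-fold lower, against 7.76% of all 13045 counted genes, and 3 were at least 2-fold higher (ADAMTS6, ADAMTS8 and ADAMTS17), against 8.13%. In either direction the 13 compare with 15.9% of genes. The median relative ratio of the 25 was 0.15, against 0.00 for all counted genes. A dim gene counted through its brighter array alone is bound to differ, and these counts do not describe the 26 members left out. With the brighter array at 84.2 or more, 2 of 6 members were 2-fold lower (ADAM15 and ADAM19), against 5.17% of genes, and 0 were higher, against 4.85%. With the floor at the 50th percentile ADAM28, ADAMTS1 and ADAMTSL1 fell short of 2-fold as well.

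**Figure D2:**
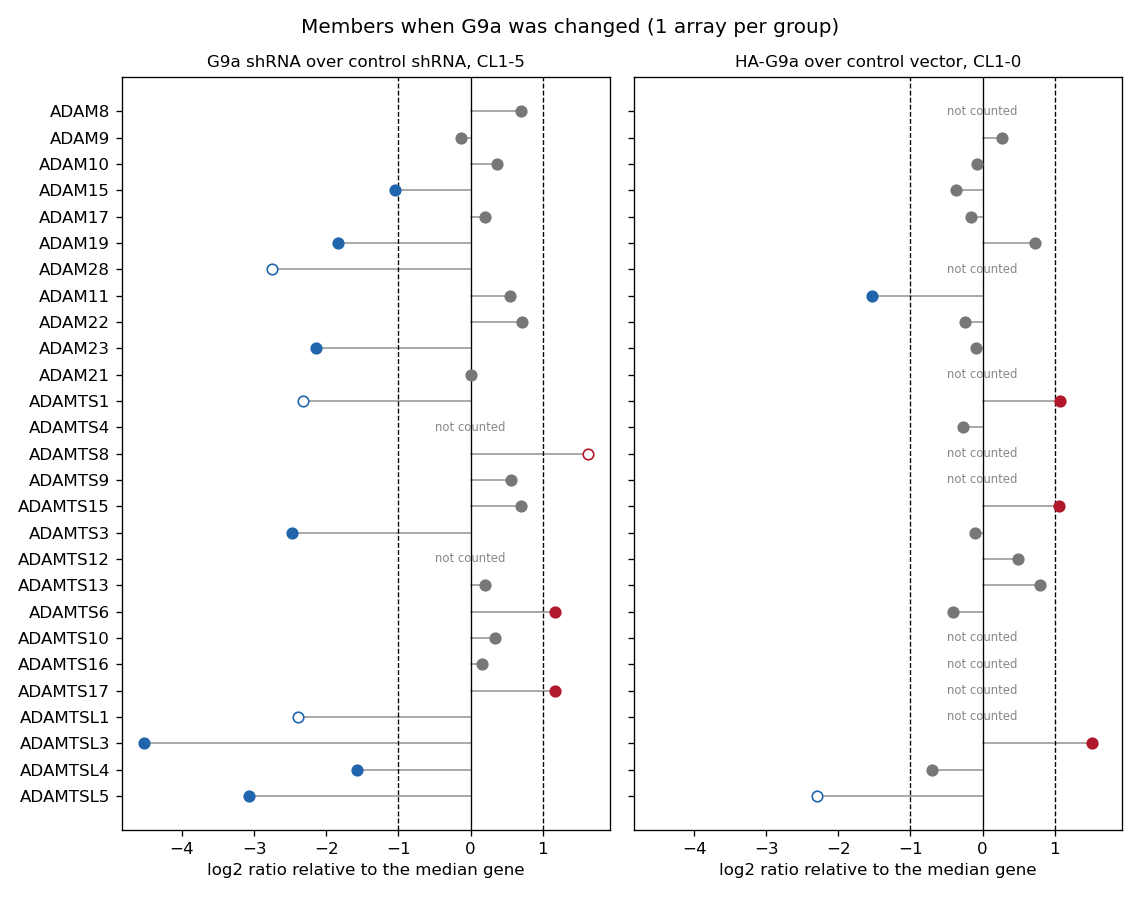
Relative log2 ratio (x axis) of members in the knockdown (left) and with HA-G9a (right), with dashed lines at 2-fold; open circles mark ratios that rest on the floor because the dimmer signal did not exceed it, and members whose brighter array did not reach 12.5 are marked as not counted. In the left panel 10 members lie beyond -1 and 3 beyond 1, and in the right panel 2 and 3.

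HA-G9a in CL1-0 went with fewer differences. Of 18 counted members, 2 were at least 2-fold lower (ADAM11 and ADAMTSL5), against 3.74% of 12791 genes, and 3 were higher (ADAMTS1, ADAMTS15 and ADAMTSL3), against 5.46%. In either direction the 5 compare with 9.21% of genes. ADAMTSL5 was counted through the vector array alone and ADAMTSL3 through the HA-G9a array alone, so their directions were largely built into the count. The median relative ratio of the 18 was -0.10. None of the 5 members past the stricter filter passed 2-fold in either direction, against 0.814% of genes lower and 1.6% higher. ADAMTSL3 and ADAMTSL5 fell short with the floor at the 50th percentile, and ADAM11 was past 2-fold under every alternative setting in which it was counted. Members past 2-fold in both lines were ADAMTS1 and ADAMTSL3, lower with less G9a and higher with more, and ADAMTSL5, lower in both. In CL1-5 each of them was counted through the control array alone, so the lower reading after the knockdown was largely built in.

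The size of these ratios can be set against the disagreement of probe sets of the same gene. Such probe sets are read from the same RNA on the same arrays, so their spread holds no variation between arrays or cultures. It cannot tell whether a ratio would repeat. Over all genes, the SD of the ratio among measured probe sets of the same gene, pooled over genes, was 0.54 for the knockdown and 0.51 for HA-G9a, and 0.30 and 0.25 past the stricter filter. Over members it was 0.65 in the knockdown (18 probe sets of 6 genes) and 0.47 for HA-G9a. Between the controls it was 0.99 over members, against 0.65 over all genes. Of the 13 members past 2-fold in the knockdown, only ADAM15 and ADAM23 had another measured probe set, and in both all of these had the same sign. The other 11 rest on 1 measured probe set each.

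**Figure D3:**
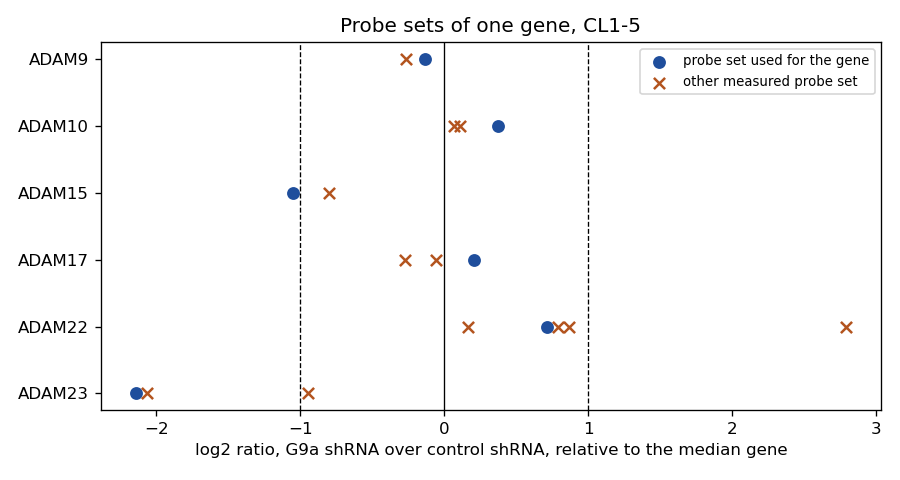
Relative log2 ratios in the knockdown (x axis) of every measured probe set of the 6 members with more than 1; circles mark the probe set used for the gene and crosses the others. The 3 probe sets of ADAM23 lie at -2.14, -2.06 and -0.94, whereas those of ADAM17 straddle 0 and those of ADAM22 spread from 0.17 to 2.79.

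Between the control populations, 5 of 22 counted members were at least 2-fold higher in CL1-5 (ADAM15, ADAM19, ADAM28, ADAMTS16 and ADAMTSL3), against 12.6% of 12925 genes. A further 4 were lower (ADAM11, ADAMTS1, ADAMTS6 and ADAMTS12), against 13.2%. In either direction the 9 compare with 25.8% of genes. ADAM28, ADAMTS16 and ADAMTSL3 were counted through the CL1-5 control alone, and ADAM11, ADAMTS6 and ADAMTS12 through the vector array alone. For these the direction was largely built into their count. Past the stricter filter, 2 of 7 members were higher (ADAM19 and ADAMTS16), against 10.3%, and 0 lower, against 9.48%. ADAM19 had a relative ratio of 2.65, ADAMTSL3 of 3.76, ADAM11 of -2.54 and ADAMTS1 of -1.71. ADAM15 was just past 2-fold at 1.02, and fell short after quantile normalization, at the stricter filter and with the median of its probe sets. ADAM28 had a ratio of 2.34 and ADAMTS6 of -1.60, and both fell short with the floor at the 50th percentile. This comparison shares the CL1-5 control with the knockdown comparison and the vector array with the HA-G9a comparison, so a high control reading enters both.

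With both arrays of each line, limma tested 27 members among 13953 genes and called 2 of them, against 2.91% of genes. ADAMTS16 was higher in CL1-5, by a relative log2 difference of 5.00 (SE 0.35, 4 arrays, limma adjusted p = 0.0075), where 1.43% of genes were called higher. Both of its CL1-0 arrays were set to the floor, so the size of the difference depends on the floor and its SE is too small. Without centring, the log2 difference was 5.24 with the floor used, and it was 3.34 with the floor at the 50th percentile and 6.46 at the 10th. ADAMTS12 was lower, by a relative log2 difference of -3.19 (SE 0.45, limma adjusted p = 0.045), where 1.48% of genes were called lower. Its CL1-5 control signal was also raised to the floor, and the call was lost with the floor at the 10th or 50th percentile. Under other settings the limma adjusted p ranged from 0.0011 to 0.083 (no filter) for ADAMTS16 and from 0.036 to 0.17 for ADAMTS12. When any 1 of the 4 arrays was left out, limma called neither and 0 of all genes, with 1275 to 4190 genes at an unadjusted p under 0.05.

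ADAMTS1 was the next, at -3.41 (SE 0.74, limma adjusted p = 0.11), and ADAM19 stood at 1.37 (SE 0.57, limma adjusted p = 0.21). These 4 were the members with an unadjusted p under 0.05. The arrays of the lines did not overlap for 10 of the 27 members, against 54.3% of genes. Since the arrays of a line differ in G9a, that difference counts as spread here, and 2 residual degrees of freedom leave little power. In simulated data, 24 of 50 genes with a log2 change of 3 were called. The simulation changed few genes and applied no floor, unlike the data, so this share is not the power of the comparison itself.

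**Figure D4:**
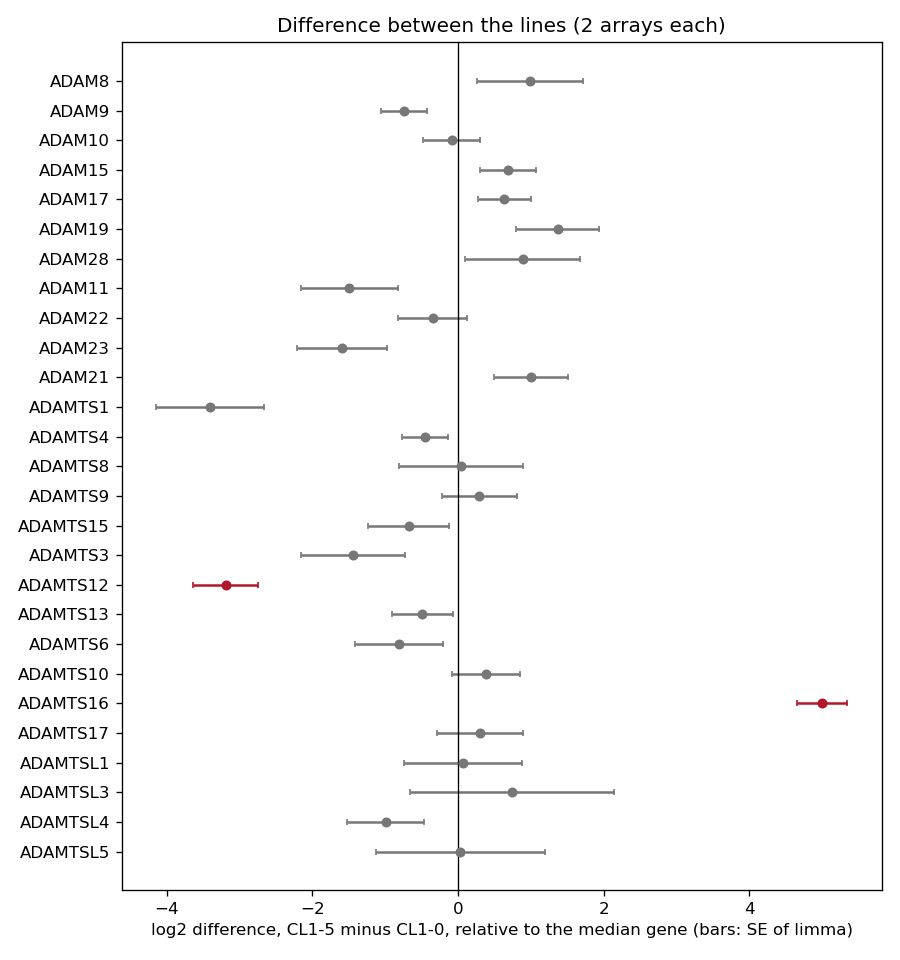
Log2 difference between CL1-5 and CL1-0 (x axis, relative to the median gene, 2 arrays per line) of the 27 tested members, with bars for limma's SE; red marks an adjusted p under 0.05. Only ADAMTS16, at 5.00, and ADAMTS12, at -3.19, are red, and ADAMTS1 lies at -3.41 with a wider bar.

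Of the genes that hold ADAM activity in check or carry ADAMs to the surface, 4 were lower after the knockdown. Counts here and for substrate genes stand against 7.76% lower, 8.13% higher and 15.9% either way of all genes. As for members, a dim gene counted through its brighter array alone is bound to differ. Of 4 counted inhibitors 2 were lower and 0 higher: TIMP3, which inhibits ADAM17 and the aggrecanases, had a relative ratio of -5.79, and TIMP2 read 439 in the control and 146 after the knockdown. TIMP1 and RECK, which restrains ADAM10, had ratios of 0.34 and 0.29. Of 14 maturation and trafficking genes 2 were lower and 0 higher, a share near that of all genes past 2-fold either way. Both are tetraspanins that escort ADAM10: TSPAN5 read 155 against 12.5 and TSPAN14 142 against 63.3. The convertase FURIN, which removes the prodomain, read 57.7 against 126, a ratio of 0.71. The iRhom genes RHBDF1 and RHBDF2, needed for ADAM17 transport, had ratios of -0.38 and 0.48.

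Among substrate genes, both directions occurred. Of 5 counted EGF family ligands 4 were higher after the knockdown and HBEGF was lower. NRG1 read 9.60 in the control against 411, BTC 3.46 against 51.8, EREG 1.46 against 32.3 and HBEGF 1587 against 223, and TGFA was the fourth that was higher. These 4 were background in the control and were counted through the knockdown array alone, so a higher reading was largely built into their count. Of 7 Notch receptors and ligands, DLL1 was lower, at 24.2 against 6.50, and 0 were higher, again a share near that of all genes. Of 22 other ADAM10 and ADAM17 substrates 3 were higher and 5 lower (median ratio 0.08). The higher ones were CDH1 at 2.36 against 77.6, TNFRSF1B at 3.71 against 72.4 and ALCAM at 12.8 against 113. The lower ones were CDH5 at 62.3 against 5.24, SDC1 at 1082 against 272, CD44 at 1581 against 653, CDH2 and L1CAM. CDH1 and TNFRSF1B were counted through the knockdown array alone and CDH5 through the control array alone. Of 12 ADAMTS substrates and ADAMTSL partners 2 were higher and 3 lower (median ratio -0.06): versican, encoded by VCAN, read 11 against 307, and fibronectin, encoded by FN1, 184 against 32.4.

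With HA-G9a, 1 of 5 counted inhibitors was higher, TIMP1 at 214 with the vector and 703 with HA-G9a, and 0 were lower. Of 15 maturation genes 1 was higher (TSPAN10, at 9.35 against 20.1) and 1 lower (PCSK6, at 14.1 against 1.0). Of 3 counted EGF family ligands 2 were higher, TGFA at 5.08 against 27.4 and NRG1 at 68.9 against 233, and 0 lower. Of 8 Notch genes JAG1 was higher, at 56.1 against 209. Of 19 other substrates 5 were higher and 1 lower, with CD44 at 32.3 against 331, MET at 146 against 883 and CDH2 at 6.98 against 21.3. Of 15 ADAMTS substrates and partners 5 were higher and 1 lower, with THBS1 at 97.4 against 391, TFPI2 at 71.4 against 240 and COL3A1, the one lower, at 330 against 59.7. In all genes 5.46% were higher and 3.74% lower. TGFA, TSPAN10 and CDH2 were among the genes counted through the HA-G9a array alone, and PCSK6 was counted through the vector array alone.

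Between the controls, the counted genes higher and lower in CL1-5 were 2 and 0 of 5 inhibitors, 2 and 1 of 15 maturation genes, 1 and 1 of 2 EGF family ligands, and 2 and 2 of 8 Notch genes. For the other ADAM10 and ADAM17 substrates they were 11 and 3 of 20, and for ADAMTS substrates and partners 3 and 4 of 13. In all genes 12.6% were higher and 13.2% lower. JAG1, a Notch ligand that ADAMs can cleave, read 4100 in the CL1-5 control against 56.1 with the vector, a relative ratio of 6.20. COL3A1, a fibrillar procollagen, read 3.75 against 330, a ratio of -6.44 whose size rests on a signal near the floor. COL3A1, NOTCH3, COL1A1 and TFPI2 were among the genes counted through the vector array alone. CDH5, CDH2 and FAS were among those counted through the CL1-5 control alone. For such genes the direction was largely built into the count.

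Markers of other cell types moved beside these differences. All 6 counted endothelial markers were at least 2-fold lower after the knockdown, against 7.76% of all counted genes. Of these, CDH5, KDR, CLDN5 and TIE1 were counted through the control array alone, so a lower reading was largely built into their count. The summed signal of the 8 endothelial markers on the array was 552 in the CL1-5 control, 120 after the knockdown, 64.9 with the vector and 55.5 with HA-G9a. VWF, a defining marker, was background on all arrays, at 1.97 in the CL1-5 control. The CL1-5 control was thus the high array, as for ADAMTSL3 and ADAM28, and the part of these markers in those readings was not tested. CDH5 is also in the substrate list above. The summed signal of 6 fibroblast markers was 36.6, 74.3, 121 and 113 in that order, and of 5 leukocyte markers 44.2, 57.1, 47.7 and 34.3, with none of either list bright on any array. COL1A1 just missed with the vector, at 84.227 against a threshold of 84.231, and made up most of the fibroblast sum there.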

How the data were processed

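RNA of 4 stably transduced populations was profiled on 1 Affymetrix array each. The authors deposited 1 intensity per probe set on a linear scale, for 54675 probe sets, made with MAS5 per the submitters' processing notes. Its version and scaling were not given in the sources used here. No group has a second array, and the number of arrays limits the precision. Probe sets were named through the array's annotation table, with symbols updated by Entrez identifier to RefSeq of GRCh38.p14: 41097 had 1 symbol (41043 matched), 1801 had several and 11777 are unnamed here. Each gene was read from the brightest, by mean over the arrays, of its single-gene probe sets. The 58 probe sets of chromosome Y genes and of XIST were left out. Signals were used as deposited, floored at the 25th percentile and log2-transformed; a gene was counted when its brighter array reached the 50th percentile.

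Named members are those expressed or past 2-fold, and of companion lists up to 4 past 2-fold per comparison. A few others are given for their role, to show both directions or to mark a limit, after their values were seen. The lines were compared with limma 3.58.1 in R 4.3.3, using lmFit, eBayes and Benjamini-Hochberg adjustment at 0.05, tested on simulated data for 13953 genes: of 50 genes each changed by 1, 2, 3 and 5 on the log2 scale it called 0, 16, 24 and 27. Other steps used Python 3.11.15, pandas 2.3.3 and NumPy 2.4.6. The planned search for a protein motif was not run. Members and lists were chosen with earlier results of these data known. Alternatives changed the scaling, filter, floor, probe set rule and design.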

Additional observations from a re-analysis of the deposited data

Results flagged for a closer look

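ADAMTSL5 stood out because its arrays moved in the same direction when G9a was lowered in CL1-5 and when it was raised in CL1-0, so that its relation to the G9a level was opposite in the lines. Its relative log2 ratio was -3.08 after the knockdown and -2.30 with HA-G9a. The difference between the lines was not tested, since each group is 1 array, and with the floor at the 50th percentile the ratios were -1.26 and -0.41. The dimmer arrays read 3.66 and 1.29, near and below the floor. In each line ADAMTSL5 was counted through the control population alone, so a lower reading was largely built into its count.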

How the results depend on the processing

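Each line population is 1 array, so no within-line ratio has an error of its own, and near background MAS5 ratios rest on the floor. No paired analysis was possible because the labels give no replicate numbers and each group has 1 array.

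After the knockdown, the 10 lower members became 2 at the stricter filter and 5 with the median of all probe sets. The 3 higher members became 6 without centring, 5 with no filter, and 1 with the arrays scaled to the same median, after quantile normalization, with the median of all probe sets and without the _s_at or _x_at sets. They became 0 at the stricter filter and with the floor at the 50th percentile, where the ratios were -0.015 for ADAMTS17, -0.16 for ADAMTS6 and -0.22 for ADAMTS8. With HA-G9a, the 2 lower members became 0 at the stricter filter, 6 with no filter and 1 with the floor at the 50th percentile. The 3 higher members became 1 without centring and with the arrays scaled to the same median, and 0 at the stricter filter and with the median of all probe sets. Between the controls, the 4 lower members became 0 at the stricter filter and 7 with the median of all probe sets, and the 5 higher became 2, 9 and 3 at the stricter filter, with no filter and with the median of all probe sets. In the limma test, the 1 member higher in CL1-5 became 0 with no filter. The 1 lower member became 0 at the stricter filter, with no filter, with the floor at the 10th or 50th percentile, with the median of all probe sets and with the G9a arm as a term. Leaving out each array in turn gave 0 to 0 members called in either direction, with 1 residual degree of freedom. The causes were not tested, apart from the smaller number of genes and samples that filters and left-out arrays leave.

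Of the 13 members past 2-fold after the knockdown, 6 stayed past it under every alternative that counted them (ADAM19, ADAM23, ADAMTS3, ADAMTSL3, ADAMTSL4 and ADAMTSL5), as did 1 of 5 with HA-G9a (ADAM11) and 6 of 9 between the controls. With thresholds taken within each array, ADAMTS1 and ADAMTSL4 joined the 7 expressed members, making 9. The median gene differed between the lines by 0.23 on the log2 scale as deposited and by -0.04 after quantile normalization.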

Other observations

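The probe set shared by ADAM29 and a second locus, which belongs to no comparison above, read 5.68 in the CL1-5 control, 2.50 after the knockdown, 1.68 with the vector and 3.22 with HA-G9a, at background on all arrays.

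Over members with a promoter window, the 8 that were 2-fold lower after the knockdown had a median of 34.5 CG pairs per window (8 to 40). The 2 that were higher had 19 (ADAMTS17) and 8 (ADAMTS6), and with the floor at the 50th percentile their ratios were slightly below 0. The low end of 8 among the lower members is ADAMTSL1, whose window lies inside the gene and does not end at its start. By level, the median was 31 for 5 expressed members, 23 for 13 intermediate and 22 for 11 background members. The windows of ADAM20, ADAMTS13 and ADAMTSL2 do not end at the gene's start either, and like that of ADAMTSL1 they enter these medians. These are descriptions of few genes with no test, and members on chromosome 8, such as ADAM9 and ADAM28, are not among them.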
